A study of Anguilla anguilla with 3 samples.

Results

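The immediate early genes fos, egr1, jun, junb and atf3 were followed in ovary RNA of 3 European eels (Anguilla anguilla). All rows of the deposited gene table that carry one of these 5 protein names were taken, and each copy was kept apart by the authors' gene identifier. That gave 14 of 45974 predicted genes, namely 4 fos rows, 5 egr1 rows, 2 jun rows, 2 junb rows and 1 atf3 row. A name is that of the most similar known protein, so rows that share a name may be copies of a gene or pieces of a single one. The names were chosen with earlier read counts of these libraries in view, so the values are a description and no test was made on them.

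Immediate early genes are transcribed within minutes when a cell receives a growth factor, hormone or stress signal, without new protein synthesis, and their mRNAs are short-lived. FOS proteins pair with JUN proteins through leucine zippers to form the transcription factor AP-1. EGR1 is a zinc finger factor and ATF3 a zipper factor of the CREB family. In mammalian ovaries the luteinizing hormone surge is known to raise Fos, Egr1 and Atf3 transcripts in follicle cells before ovulation.

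The yellow eel is the growing stage, the prepubertal silver eel has begun the change towards the migrant, and the matured eel was sampled after spawning. The yellow and matured eels came from Lake Veerse in spring and the silver eel from Lake Grevelingen in December of another year, so in comparisons with the silver eel stage, lake and season cannot be told apart. The yellow and matured eels share lake and season of origin. With 1 eel each, stage still cannot be told apart there from other differences between single eels. RNA from 3 parts of each gonad was pooled, so every library is 1 eel. The labels name no treatment or age, and how the matured eel came to spawn is not given in them. The libraries held 27811764 (yellow), 41426808 (silver) and 30137882 (matured) reads assigned to genes. Values are given in CPM (reads per 1000000 after scaling the libraries to a common size). Folds are ratios of scaled counts, and the 95% intervals, exact Poisson for levels and exact binomial for folds, cover counting error only. Oocyte markers were abundant in all 3 libraries, among them the egg coat gene zp2 at 15100, 11352 and 10033 CPM in yellow, silver and matured, and the oocyte growth factor gdf9 at 60.8, 116 and 32.0 CPM. The granulosa factor foxl2 was at 4.21, 13.8 and 26.1 CPM summed over its 3 rows. In whole ovary, fewer cells of a type and less RNA per cell cannot be told apart.

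The 14 rows did not share a single pattern over the 3 libraries. The main fos row was high in the silver and matured libraries, the second fos row, egr1 g24714 and atf3 were high in the matured library, and the main jun and junb rows were abundant in all 3. To be counted as higher or lower, a row needed a 4-fold ratio, computed with 1 CPM added on each side, and a level of 10 CPM or more on its high side. Only 4 of the 14 rows reached that minimum in silver versus yellow, and 7 in each of the comparisons with the matured library. By this rule 1 row was higher and 0 lower in silver than in yellow (background over all genes 3.69% higher, 1.43% lower and 5.12% in either direction). Against silver, 3 rows were higher and 0 lower in matured (background 2.23%, 4.61% and 6.84%), and against yellow 5 were higher and 0 lower (background 3.39%, 2.59% and 5.98%). The rows had been chosen from these contrasts, so nothing is read from these shares. The row fos g3322, egr1 g24714 and atf3 passed the minimum through the matured library alone. In the comparisons with yellow, fos g12409 and junb g11400 passed it only through the silver or the matured library. With 5 CPM added in place of 1, fos g12409 was still counted against yellow in both other libraries, and no other member was counted in any comparison.

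**Figure D1:**
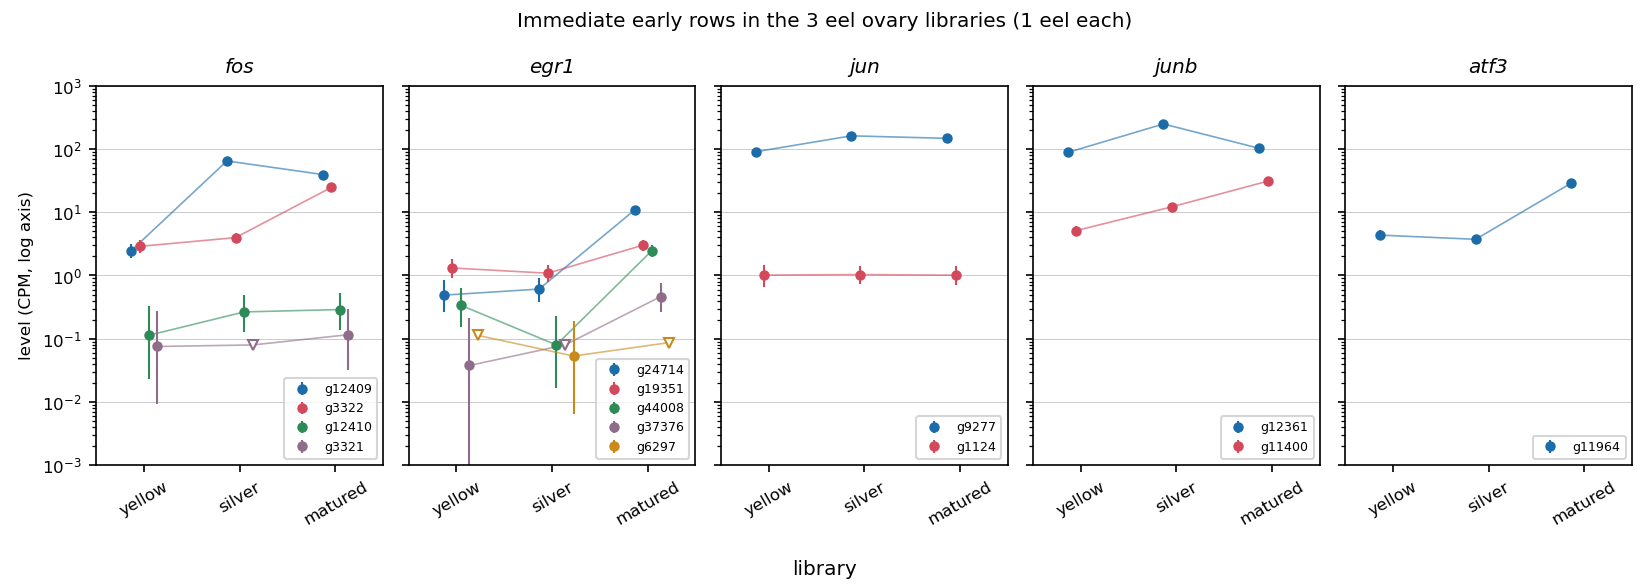
Level of each row in CPM on a log axis, 1 panel per gene name, in the yellow, silver and matured libraries. Points are the 3 libraries with exact Poisson 95% intervals (an interval that runs below 0.001 CPM is cut at the axis), lines join a row's points, and open triangles mark a row with no reads at the level of 3 counts. The row fos g12409 stands at 65.1 CPM in silver against 2.48 in yellow, while fos g3322 and atf3 stand high in matured.

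FOS is an inducible partner in AP-1, and its main row had the highest ratio of the members that reached 10 CPM in silver versus yellow. The row fos g12409 had 66 reads in yellow, 2454 in silver and 1374 in matured, or 2.48 CPM (1.92 to 3.16), 65.1 CPM (62.5 to 67.7) and 39.7 CPM (37.6 to 41.9). The counting intervals of silver and matured lie above that of yellow, but they do not cover the spread between eels. The row was 26.2-fold higher in silver than in yellow (20.5 to 34.0). Its ratio with 1 CPM added stood at rank 22 of 12462 rows, ordered from the highest. The row passed the minimum through silver alone and had been chosen from these contrasts, so nothing is read from that rank. In matured fos g12409 was 16.0-fold higher than in yellow (12.5 to 20.8) and 1.64-fold lower than in silver (1.53 to 1.75).

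The second fos row, g3322, followed another course. It had 77 reads in yellow, 150 in silver and 856 in matured, or 2.89, 3.98 and 24.7 CPM. Here matured stands alone, at 6.22-fold over silver (5.22 to 7.45) and 8.55-fold over yellow (6.76 to 10.9), while silver was 1.37-fold over yellow (1.04 to 1.83). Per transcript length, in the authors' RPKM, g12409 stood at 0.804 times the level of g3322 in yellow, 15.4 times in silver and 1.51 times in matured. The row g12409 therefore held 42.3% of the fos RPKM in yellow, 93.4% in silver and 59.5% in matured. The remaining fos rows were near the limit of detection, g12410 with 3, 10 and 10 reads and g3321 with 2, 0 and 4 reads in yellow, silver and matured. Summed over the 4 rows, fos was 12.5-fold higher in silver (10.6 to 14.8) and 11.7-fold higher in matured (9.87 to 13.9) than in yellow. The summed level was 69.3 CPM in silver and 64.8 CPM in matured, 1.07-fold lower (1.01 to 1.13), a difference smaller than the shift between scalings. The sums thus hide opposite courses, since g12409 was lower and g3322 higher in matured than in silver.

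JUN and JUNB bind DNA with FOS or with each other, and they were the most abundant members. The row jun g9277 had 2419, 6133 and 5133 reads in yellow, silver and matured, or 90.9, 163 and 148 CPM. Silver was 1.79-fold over yellow (1.71 to 1.88) and matured 1.63-fold over yellow (1.55 to 1.71). Matured against silver depended on the scaling, with a log2 ratio of -0.13 here and of 0.20 with library totals alone. The other jun row, g1124, stayed at 1.02, 1.03 and 1.01 CPM with overlapping counting intervals, from 27, 39 and 35 reads.

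JUNB, which can restrain JUN at some promoters in mammals, had 2 rows with different courses. The row junb g12361 had 2363, 9446 and 3570 reads, or 88.8 CPM in yellow, 250.5 CPM in silver and 103 CPM in matured. It peaked in silver, 2.82-fold over yellow (2.70 to 2.95) and 2.43-fold over matured (2.34 to 2.52). The row junb g11400 was highest in matured instead, with 137, 462 and 1078 reads, or 5.15, 12.2 and 31.2 CPM. Matured was 2.54-fold over silver (2.28 to 2.84) and 6.05-fold over yellow (5.06 to 7.28), and silver was 2.38-fold over yellow (1.96 to 2.90). Per length, g12361 was 14.5, 17.2 and 2.78 times as high as g11400 in yellow, silver and matured. In both fos and junb, then, the less abundant copy of the silver library took a larger share in the matured library.

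**Figure D2:**
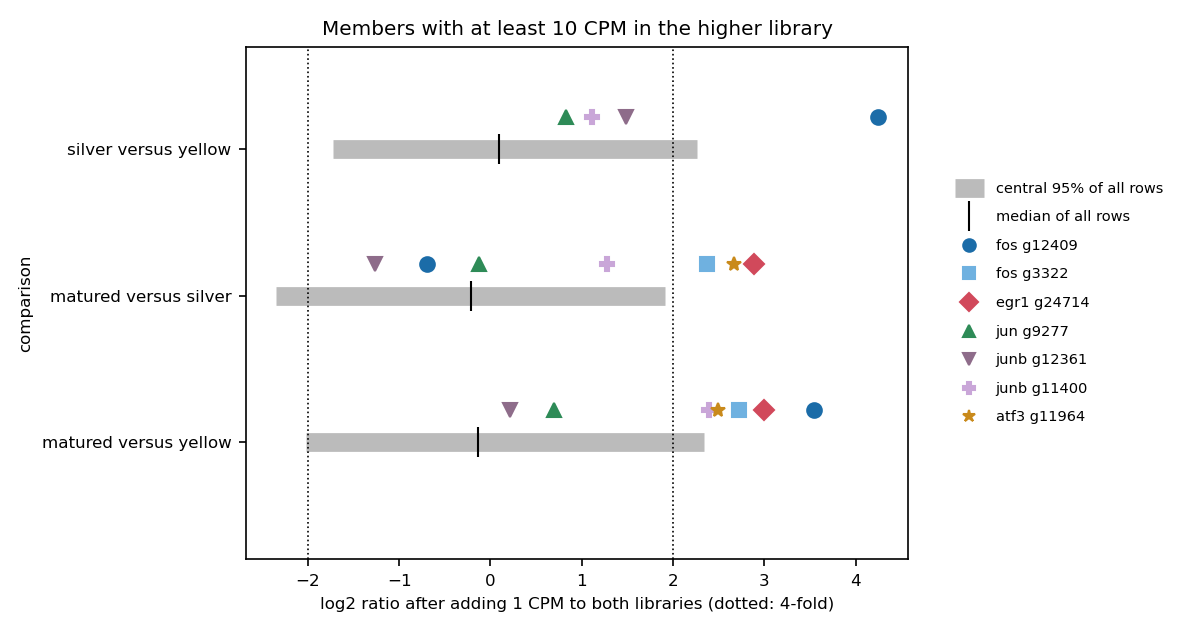
Log2 ratios after adding 1 CPM (x axis) in the 3 comparisons (y axis) for the members that reach 10 CPM on the high side. Grey bars are the central 95% of all rows that reach the same minimum, black ticks their medians, and dotted lines 4-fold; fos g12409 lies at 4.25 in silver versus yellow, while junb g12361 lies at -1.27 and egr1 g24714 at 2.89 in matured versus silver.

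AP-1 balance was described per transcript length by summing the authors' RPKM over the Fos family (fos, fosb and fosl2, 7 rows) and the Jun family (jun, junb and jund, 7 rows). The Fos family summed to 3.56 RPKM in yellow, 32.6 in silver and 43.6 in matured. The Jun family summed to 135, 306.5 and 235 RPKM. Jun family transcripts exceeded Fos family transcripts in every library, 37.8 times in yellow, 9.39 times in silver and 5.40 times in matured. These ratios are within a library and do not depend on how libraries were scaled. The name fos made up 79.4%, 97.8% and 88.4% of its family sum in yellow, silver and matured.

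Among the relatives, fosb, an inducible FOS paralogue, went the other way from fos in the silver library. It had 46 reads in yellow, 2 in silver and 244 in matured, or 1.73, 0.0530 and 7.05 CPM. It was therefore 32.6-fold lower in silver than in yellow (8.53 to 277) and 133-fold higher in matured than in silver (36.4 to 1104), intervals that are wide because only 2 reads lie behind the silver value. The main fosl2 row, g23476, stood at 1.50, 2.65 and 5.14 CPM, and the other, g32497, had 0, 1 and 14 reads. JUND, a Jun protein that most cells make without a stimulus, had a main row, g1909, with a course like junb g12361, at 82.3, 205 and 66.2 CPM. The second jund row, g20073, was at 28.7, 72.3 and 83.3 CPM. No row carried the name fosl1, and none carried the other fixed names egr2, dusp1, ier2 or nab1. Such genes may stand under other names.

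**Figure D3:**
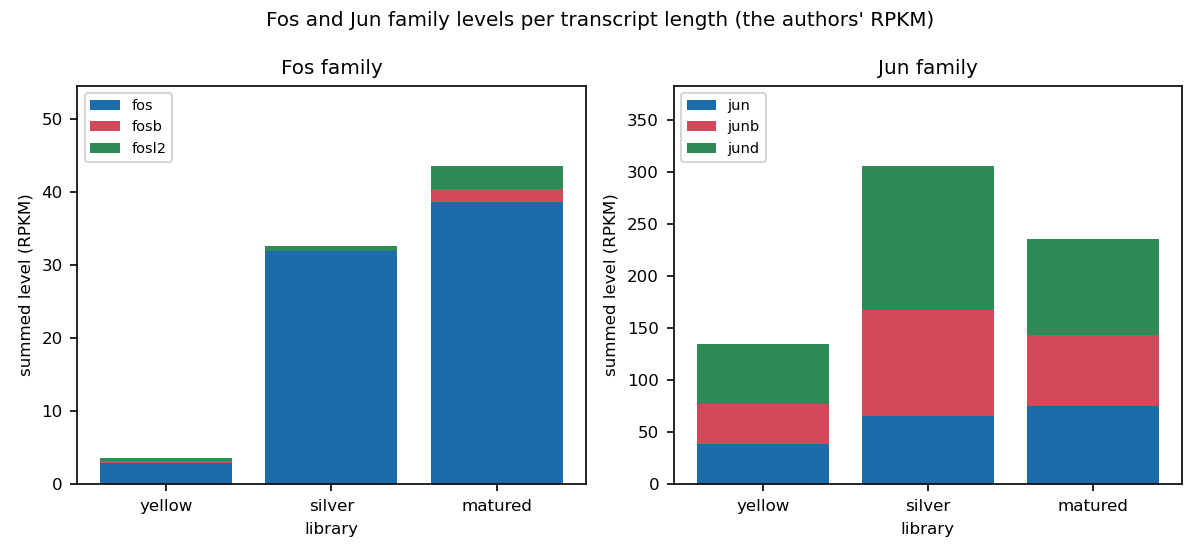
Summed level in the authors' RPKM (y axis, from 0) of the Fos family and the Jun family in the yellow, silver and matured libraries, stacked by gene name. Fos family bars reach 3.56, 32.6 and 43.6 RPKM and Jun family bars 135, 306.5 and 235 RPKM, so the panels have different axes.

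ATF3, a stress-induced factor that mostly represses transcription in mammals, was high in the matured library. Its single row, g11964, had 116 reads in yellow, 141 in silver and 1006 in matured, or 4.36 CPM (3.60 to 5.23), 3.74 CPM (3.15 to 4.41) and 29.1 CPM (27.3 to 30.9). The yellow and silver intervals overlap and matured lies apart, 7.78-fold over silver (6.51 to 9.34) and 6.67-fold over yellow (5.50 to 8.15).

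EGR1 transcripts were scarce in yellow and silver. The row egr1 g24714 had 13, 23 and 378 reads, or 0.489, 0.610 and 10.9 CPM in yellow, silver and matured. It was 17.9-fold higher in matured than in silver (11.8 to 28.6) and 22.4-fold higher than in yellow (12.9 to 42.4), while the yellow and silver intervals overlap. The row g19351 had 35, 41 and 105 reads, and was 2.79-fold higher in matured than in silver (1.93 to 4.11). The short row g44008, of 469 bases, had 9, 3 and 86 reads, and g37376, of 220 bases, had 1, 0 and 16 reads. The last, g6297, had 0, 2 and 0 reads. A limit of 3 counts for a row without reads equals 0.113 CPM in yellow and 0.0867 CPM in matured. The exact Poisson upper bounds of g6297 there were 0.139 and 0.107 CPM. Thus 4 of the 5 egr1 rows had their highest level in matured. The RefSeq annotation of the fAngAng1.pri assembly lists 1 gene under the symbol egr1. It lists 0 under fos and 0 under junb, so such genes may stand there under other symbols. Whether some egr1 rows are pieces of 1 gene was therefore not settled. Summed over the 5 rows, egr1 had 58, 69 and 585 reads, and was 9.24-fold higher in matured than in silver (7.19 to 12.0) and 7.75-fold higher than in yellow (5.91 to 10.3).

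In order of level per length, yellow ran from jun g9277 (38.5 RPKM) and junb g12361 (36.0 RPKM) to rows of at most 2.49 RPKM. Silver ran from junb g12361 (96.7) through jun g9277 (65.5) and fos g12409 (29.8) to junb g11400 (5.63 RPKM) and lower rows. In matured jun g9277 led (75.4 RPKM), followed by junb g12361 (50.2), fos g12409 (22.9), junb g11400 (18.1), fos g3322 (15.2), atf3 (11.6) and egr1 g24714 (6.98 RPKM). Among all genes of its library by RPKM, fos g12409 lay at percentile 46.6 in yellow, 89.9 in silver and 85.8 in matured, and atf3 at 48.7, 46.2 and 75.2. The main jun and junb rows lay between percentiles 91.0 and 97.2 in all 3 libraries.

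Other genes of the response were taken from 6 lists with 417 rows in all. In silver versus yellow, 137 of these rows reached 10 CPM, and 7 (5.11%) were at least 4-fold higher and 2 (1.46%) lower. In matured versus silver 8 of 151 were higher (5.30%) and 9 lower (5.96%), and in matured versus yellow 10 of 139 were higher (7.19%) and 3 lower (2.16%). The background shares over all genes are those given for the members. The median log2 ratio over list rows with at least 1 CPM on average was 0.09, 0.10 and 0.13 in the 3 comparisons, against 0.01, -0.03 and -0.05 over all genes.

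The serum response factor SRF and MAP kinases carry growth signals to the fos and egr1 promoters in mammals. Of the 33 rows on that list that reached 10 CPM in silver versus yellow, 0 were higher and 1 lower (3.03%, all genes 1.43%). In both comparisons with matured 0 were higher and 0 lower. The row that was lower is mk12, the stress kinase p38 gamma, at 165 CPM in yellow and 31.8 CPM in silver. The main srf row, g8245, was at 157, 76.0 and 73.3 CPM in yellow, silver and matured. The scarcer row g20706 was at 2.41, 1.88 and 1.36 CPM. The row g20468 was highest in matured instead, at 0.2255, 0.504 and 1.76 CPM. MAP kinase phosphatases switch the same kinases off. On their list, with other feedback inhibitors, 1 of 12 rows was higher in matured than in silver (8.33%, all genes 2.23%), and 0 were lower. The higher row was dus2 (2.57 CPM in silver against 14.4 CPM in matured, 5.59-fold, 4.49 to 7.03). The phosphatase dus6 was at 13.1, 47.7 and 37.5 CPM. In silver it was 3.63-fold over yellow (3.24 to 4.09), short of the 4-fold rule. Other rows of that list took other courses, dus4 at 38.4, 72.0 and 34.1 CPM and the Sprouty gene spy2 at 26.35, 25.45 and 11.2 CPM. The median log2 ratio of the list was 0.07 in silver versus yellow.

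Of the 9 rows of the EGR family list, with its NAB corepressors and the related wt1b, 2 reached 10 CPM, both through matured, and 0 were counted in any comparison. The main egr3 row, g10864, stood at 3.68, 5.75 and 10.3 CPM in yellow, silver and matured. The other egr3 rows were scarce, with 8, 7 and 14 reads in g11505 and 5, 1 and 3 in g39130. The main nab2 row, g8102, stood at 4.66, 3.84 and 3.67 CPM. The other nab2 row, g4155, was highest in matured instead, with 0, 1 and 23 reads. The orphan nuclear receptor nr4a1, an immediate early gene of steroid-producing cells, was highest in matured in each of its 3 rows, with 27, 138 and 210 reads in g4161, 2, 26 and 251 in g8104, and 0, 2 and 8 in g38591. No row of nr4a1 reached 10 CPM. The name nr4a3 had 3, 10 and 17 reads in g11183, and 0, 0 and 4 in g43510.

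The list of other rapid response genes held rows of both courses. In silver versus yellow 4 of its 35 rows were higher (11.4%, all genes 3.69%) and 0 lower (all genes 1.43%). They were socs1, an inhibitor of cytokine signalling (8.82-fold, 7.80 to 10.0), arrd3, an arrestin-like protein (10.1-fold, 7.87 to 13.2), id1, an inhibitor of helix-loop-helix factors (5.93-fold, 5.71 to 6.15) and the antiproliferative gene btg1 (5.73-fold, 5.62 to 5.84). In matured versus silver 3 of 40 rows were higher (7.5%, all genes 2.23%) and 8 lower (20%, all genes 4.61%). The higher rows were ctgf and cyr61, matrix proteins induced by serum and stretch in mammals, and tisb, which destabilizes AU-rich mRNAs. The row ctgf g3764 went from 4.51 and 7.79 CPM in yellow and silver to 47.7 CPM in matured, and cyr61 g4725 from 1.73 and 3.39 to 23.5 CPM. The lower rows included id1 g20038, at 692 CPM in silver and 48.9 in matured, arrd3 g11439, at 25.1 and 2.17 CPM, and ikba, the NF-kappa-B inhibitor, 6.32-fold lower (5.87 to 6.81). In matured versus yellow 5 of 32 rows were higher (15.6%, all genes 3.39%) and 2 lower (6.25%, all genes 2.59%). The higher rows there were ctgf, cyr61, tisb, myc and pim3.

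**Figure D4:**
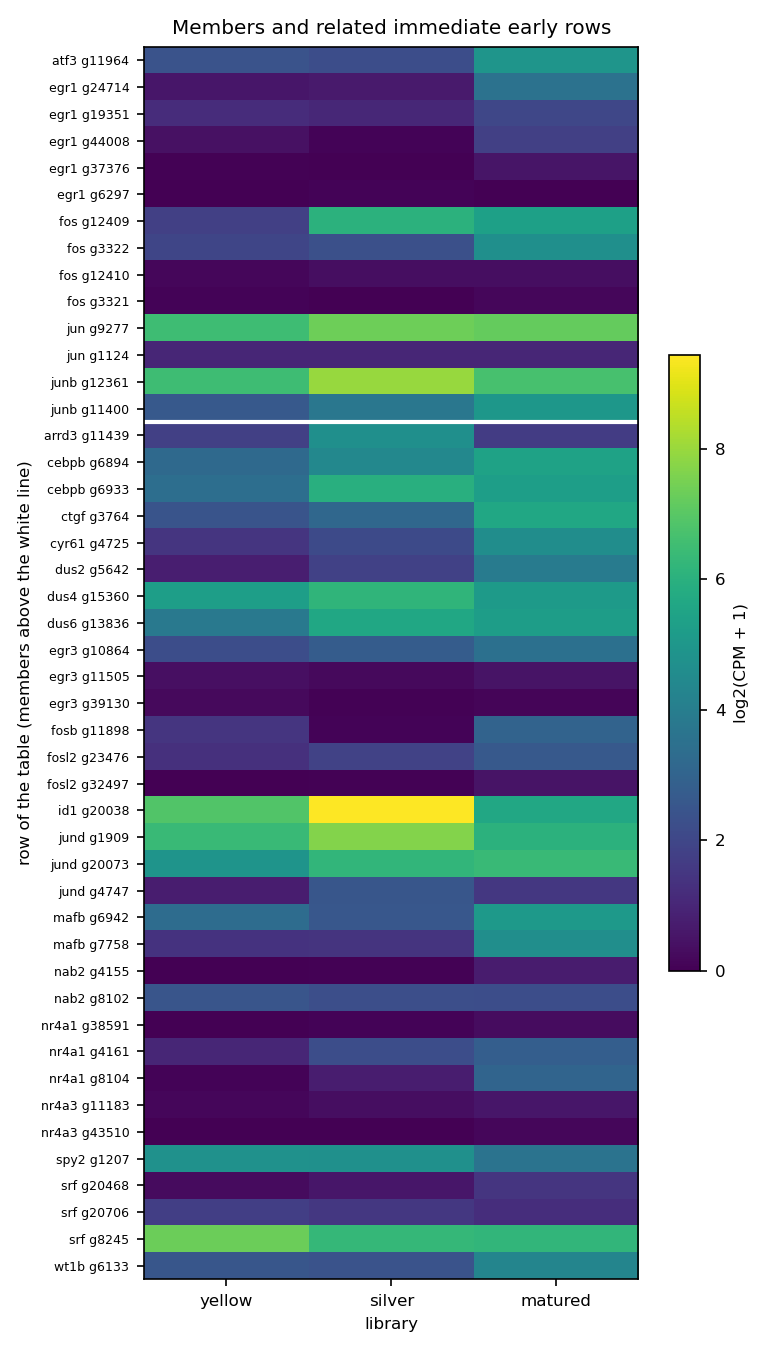
Level as log2(CPM + 1) (colour) of the 14 members, above the white line, and of related rows named by the fixed rule, below it, in the yellow, silver and matured libraries. The rows ctgf g3764, cyr61 g4725, mafb g7758 and dus2 are brightest in matured, and id1 g20038 and arrd3 g11439 in silver.

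Among leucine zipper factors outside Fos and Jun, cebpb, which acts in mammalian granulosa cells after the luteinizing hormone surge, had a row g6933 at 9.70 CPM in yellow, 60.5 in silver and 37.8 in matured. Its second row, g6894, stood at 8.27, 20.1 and 42.8 CPM, highest in matured. The macrophage and epithelial factor mafb was high in matured in both rows, at 24.0 CPM against 1.67 in silver in g7758 and 32.3 against 4.85 CPM in g6942. Of the whole list, 1 of 25 rows was higher (4%, all genes 3.69%) and 1 lower (4%, all genes 1.43%) in silver versus yellow. In matured versus silver 4 of 28 were higher (14.3%, all genes 2.23%) and 0 lower. In matured versus yellow 2 of 28 were higher (7.14%, all genes 3.39%) and 0 lower. Stress-responsive genes gave 2 of 34 rows higher (5.88%, all genes 3.69%) and 0 lower in silver versus yellow. The higher rows were the growth arrest gene ga45g (g11786, 0.601 to 11.2 CPM) and egln3, a hypoxia-induced hydroxylase (3.53 to 26.0 CPM). In matured versus silver 0 of 36 were higher and 1 lower (2.78%, all genes 4.61%), egln3, which stood at 2.34 CPM in matured. The chaperone hs90a and sesn3 were higher in matured versus yellow, 2 of 34 rows (5.88%, all genes 3.39%). In that comparison 1 row was lower (2.94%, all genes 2.59%). That lower row was the more abundant ga45g row, g26313, at 48.4 CPM in yellow, 26.8 in silver and 7.05 in matured, opposite in silver versus yellow to g11786.

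Markers of oocytes and of other cells differed between the libraries as well. The oocyte list summed to 58408, 47136 and 39234 CPM in yellow, silver and matured over 34 rows, with 0 of 28 rows higher and 4 lower in matured versus silver. In silver versus yellow and in matured versus yellow 0 of 30 oocyte rows were higher and 1 was lower. Oocyte genes did not share a course. The oocyte kinase mos stood at 419, 1108 and 218 CPM, highest in silver, and zar1 at 2572, 1864 and 1081 CPM, highest in yellow. Of the immune marker rows that reached 10 CPM, 13 of 16 were higher in matured than in silver and 0 lower, and the list summed to 61.9, 154.5 and 359 CPM in yellow, silver and matured over 23 rows. Of the fibroblast marker rows 10 of 13 were higher and 1 lower, with sums of 172, 212 and 1393 CPM over 36 rows. Of the smooth muscle rows 5 of 13 were higher and 0 lower, with acta, a smooth muscle actin, at 0.827, 2.39 and 79.1 CPM over 2 rows, although that list summed to 1433, 1091 and 958 CPM. Of the ovarian somatic rows 5 of 10 were higher and 0 lower, with sums of 234, 188 and 704 CPM. The endothelial sums were 46.4, 44.0 and 46.4 CPM and the erythrocyte sums 168, 141 and 193 CPM, with 0 rows of either list higher or lower in matured versus silver. Only 2 endothelial rows reached 10 CPM in that comparison. The endothelial row cadh5 g17569 went against the level sum, at 21.1, 18.8 and 4.02 CPM. It was 5.25-fold lower in matured than in yellow (4.35 to 6.37), the only endothelial row to reach 10 CPM there. In silver versus yellow 2 of 3 immune rows, 1 of 8 fibroblast rows and 2 of 7 ovarian somatic rows were higher, and 1 ovarian somatic row was lower. In matured versus yellow 14 of 16 immune rows, 10 of 12 fibroblast rows, 4 of 14 smooth muscle rows and 7 of 10 ovarian somatic rows were higher. On these lists 1 ovarian somatic row was lower in matured than in yellow. Over all genes 3.69% of rows were higher in silver versus yellow, 2.23% in matured versus silver and 3.39% in matured versus yellow. Only 3 immune rows reached 10 CPM in silver versus yellow, so most of the 16 passed the minimum through matured alone. Some fibroblast, smooth muscle and ovarian somatic rows also passed it only through matured. Nothing is therefore read from these marker shares. Rows were found for 13 of 19 immune, 13 of 19 fibroblast, 13 of 15 smooth muscle, 10 of 18 endothelial and 8 of 16 erythrocyte names. None of these matched names was at 0 in any library, and the names without a row could not be checked. On the ovarian somatic list stf1 was at 0 in all 3. The part of these cells in the levels of fos, egr1, junb and atf3 was not tested.

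The rows whose course was most like that of fos g12409 were looked for among 11705 other named rows with at least 10 CPM in their highest library, by the distance between log2(CPM + 1) values centred on each row's mean over the 3 libraries. The 5 nearest were the nuclease harb1 (g21289, distance 0.169), the chemokine ccl25, also on the immune list (0.309), klhl4 (0.430), the epidermal growth factor receptor egfr (0.482) and mxra5 (0.678). With 3 libraries this likeness is loose. The nearest member was junb g11400, at distance 2.24 and rank 649, and fos g3322 stood at rank 3172.

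The authors' deposited table gives adjusted p-values from DESeq without replicates, a test that the notes with it call very conservative. In that table fos g12409 had an adjusted p of 0.0983 in silver versus yellow by DESeq without replicates. It was the only member below the 0.1 named in those notes, among 66 genes of 38724 below it. The names had been chosen with earlier read counts of these libraries in view, so nothing is read from that value. The lowest member value in the authors' deposited table was 0.442 in matured versus silver (egr1 g24714) and 0.263 in matured versus yellow (fos g12409). The authors' adjusted log2 fold of fos g12409 in silver versus yellow was 6.425. Here the log2 ratio was 4.25 with 1 CPM added, and the fold without it was 26.2. Why these differ was not tested. The adjusted p-values come from the authors' own test and were not recomputed for the folds given here.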

How the data were processed

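Ovary RNA was sequenced from 1 yellow, 1 silver and 1 matured eel, with libraries made by an Illumina mRNA kit from 10 micrograms of RNA per the labels' protocols. Genes had been predicted by Augustus and named by Blast2GO, and the authors deposited counts from CLC bio software, per the file headers. The counts used are the authors' corrected total reads, with reads of several alignments distributed by the CLC method. All reads of the 14 members were unique. Deposited RPKM values divide corrected reads by transcript length and by total reads. The authors deposited log2 fold changes and, also from DESeq, adjusted p-values that rest on the variance between the 3 conditions. TopHat2 2.0.5, SAMtools 0.1.18, HTSeq and CASAVA stand in the submitters' processing notes with no role. No genome build is named there. The line of totals and 1 blank line name no gene and were left out. The 3 columns of unadjusted folds and the 3 of unadjusted p-values were not used.

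TMM factors (edgeR 4.0.16) scaled the counts (0.957, 0.910 and 1.15 for yellow, silver and matured) in R 4.3.3 over all genes. Single genes have exact conditional binomial (Clopper-Pearson) intervals of the fold, which hold for counting error only, since amplified reads are not independent molecules. A count of 0 was taken to allow up to 3 counts, a limit apart from the Poisson intervals. Each stage has 1 eel, so there is no replicate check and no p-value of a new test. Members, lists and rules were chosen with earlier results of these data known. The 6 response lists and 7 marker lists were matched by name, and a SPRY domain gene that shares the symbol of a Sprouty gene was dropped for its description. Named genes were all member rows and a fixed set of relatives. From each list, up to 4 rows with the largest ratio and at least 10 CPM were added. The rows nearest to fos g12409 were named by distance. The markers zp2, gdf9, zar1 and foxl2 came from a further set of marker names, of which not all are given. Other rows named were counted by the 4-fold rule and chosen after their values were seen. The alternatives were DESeq2 1.42.0 size factors, library totals, RPKM, unique reads, a 2-fold threshold, minimums of 0 and 1 CPM, and adding 0.1 or 5 CPM. Removal of a length trend (running median over 1001 rows) and sums per name were added after seeing the data. The call rule and the intervals were tested on data simulated with Poisson noise alone. A median ratio stood in for the TMM factors there, so the TMM scaling was not tested. Other tools were Python 3.11.15, scipy 1.17.1, pandas 2.3.3, matplotlib 3.10.9 and numpy 2.4.6.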

Additional observations from a re-analysis of the deposited data

How the results depend on the processing

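No paired analysis was possible because each stage has 1 eel. With library totals alone the median log2 ratio of all genes went from -0.03 to 0.25 in matured versus silver and from -0.05 to 0.18 in matured versus yellow. The share of higher rows among all called rows went from 32.7% to 57.6% and from 56.7% to 74.3%. It was 50.8% with RPKM against 72.1% in silver versus yellow. Over all genes, 281 higher and 579 lower rows in matured versus silver became 444 and 327 with library totals alone, 433 and 318 with RPKM, 1212 and 2739 at 2-fold, and 100 and 326 with a pseudocount of 5 CPM. The 460 and 178 of silver versus yellow became 2318 and 1386 at 2-fold, 214 and 68 with 5 CPM, and 322 and 312 with RPKM. The 426 and 325 of matured versus yellow became 671 and 410 with no filter, 1426 and 1933 at 2-fold, and 149 and 132 with 5 CPM. The ratios of single members moved beyond counting error in 40 of 180 recalculations. The settings with no filter, a minimum of 1 CPM and a 2-fold threshold do not alter a ratio, so their 18 recalculations each could not move. No called ratio changed sign. The ratio of jun g9277 in matured versus silver, which was not called, went from -0.13 to 0.20 with library totals alone. The log2 ratio of fos g12409 in silver versus yellow ranged from 3.23 to 4.66. The members called were the same rows under DESeq2 size factors, library totals, both other minimums, a pseudocount of 0.1 CPM, unique reads and the length trend. All member reads were unique, so the unique-read setting changed only the scaling. Lower minimums could only add rows. A pseudocount of 5 CPM left 0 members higher in matured versus silver and 1 in matured versus yellow, which shrinks low rows by construction. With the 2-fold threshold 3 members were higher in silver versus yellow and 1 was lower in matured versus silver. Sums per name gave 3 names higher in matured versus yellow. With RPKM, egr1 g24714 stayed under the minimum.

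For the response lists, silver versus yellow gave 4 lower rows with a pseudocount of 0.1 CPM and 1 with 5 CPM or the length trend removed, and 34 higher and 15 lower rows at 2-fold. Matured versus silver gave 13 higher rows with no filter or a minimum of 1 CPM, 3 with a pseudocount of 5 CPM, 25 higher and 37 lower at 2-fold, and 5 lower with RPKM. Matured versus yellow gave 5 higher and 1 lower with a pseudocount of 5 CPM, 25 and 17 at 2-fold, and 1 lower with library totals alone or RPKM. Where no reason is given, the cause was not tested.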
